A study of Mus musculus with 3 samples.

Results

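The 80 genes described here encode proteins of the cytosolic ribosome. They are the rows of the deposited count table that are annotated as protein coding and whose symbol is *Rpl* or *Rps* with a number (and, for some, a closing a, x, y, or l), together with *Rplp0*, *Rplp1*, *Rplp2*, and *Rpsa*. They make up 80 of 55421 named genes, with 31 genes of the small subunit and 49 of the large subunit. The rule used symbols and annotation only and no measured value. ALSCs are pluripotent stem cells derived from the epiblast of mouse embryos at embryonic day 6.5, from a cross of ICR females with GOF/GFP males, and kept in medium with Activin A and LIF. Poly(A) RNA of 3 ALSC replicates was sequenced, and no other condition was analysed here, so nothing below compares ALSCs with another cell type. They are described as biological replicates, and the tests below measure only the spread between these samples. Replicates 1, 2, and 3 had 18088505, 18724038, and 18037342 counts on named genes in total.

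Every cell builds ribosomes from ribosomal RNA and a nearly complete set of small basic proteins, each needed in about the same number of molecules. The mRNAs of these proteins are among the most abundant of growing cells and begin with a tract of pyrimidines, the terminal oligopyrimidine motif, through which mTORC1 controls their translation. Their abundance has also left many processed pseudogenes in mammalian genomes, which are intronless copies of the mRNA that can be nearly identical to the coding gene.

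The cells carried markers of pluripotent cells, though not all at a high level. *Pou5f1* was at 648 ± 25.3 FPKM (mean ± SD, n = 3), the highest of 7 such markers, and *Fgf5* at 3.89 ± 0.0503 was the lowest. *Otx2* was also low at 5.08 ± 0.472 FPKM. The summed level of the 7 markers was 1372, 1387, and 1398 FPKM in replicates 1, 2, and 3. The 5 fibroblast markers summed to 0.166, 0.275, and 0.313 FPKM, with *Dcn* and *Lum* at 0 and *Col1a2* the highest at 32, 64, and 65 counts. The 5 markers of visceral endoderm summed to 1.46, 1.10, and 0.528 FPKM, with *Ttr* and *Apob* at 0 and *Amn* the highest at 46, 36, and 17 counts. This sum, nearly all of it from *Amn*, was highest in replicate 1, as was the trophoblast sum that follows. Most ribosomal protein genes below were also highest there, and any part of either sum in that was not tested. The 5 trophoblast markers summed to 1.48, 1.17, and 1.22 FPKM, with a single read on *Elf5* and on *Cdx2* over the 3 libraries, 66, 46, and 55 counts on *Tfap2c*, and 62, 63, and 43 on *Krt7*. Because the libraries are bulk RNA, fewer cells of a type and less RNA per cell cannot be told apart.

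The ribosomal protein genes took up 10.9%, 8.18%, and 8.54% of all reads counted on named genes in the replicates, in their order (9.21 ± 1.47%, mean ± SD, n = 3), although they are 0.144% of the named genes. FPKM, the count per kilobase of gene length scaled to the total on named genes, was used for levels. The median over the 80 genes was 684, 486, and 527 FPKM in replicates 1, 2, and 3, against 4.16, 4.75, and 4.65 FPKM for the 13885 coding genes with at least 10 counts in total. Of the 80 genes, 41 were among the 100 highest of all named genes and 69 among the 500 highest. The small subunit genes had a median of 604 ± 89.5 FPKM and the large subunit genes of 463 ± 79.6 FPKM. The table's gene length spans the exons of all isoforms and is a median of 2.02 times that of the principal mRNA of GENCODE M21, a reference annotation of the same genome build. On the mRNA's length the medians were 1416 ± 213 FPKM for the small subunit and 1156 ± 213 FPKM for the large subunit. Both scales are therefore given where levels of genes are compared.

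The highest level of all named genes was that of *Rplp1*, with 6096, 4680, and 4529 FPKM in replicates 1, 2, and 3. It encodes an acidic protein of the ribosomal stalk, which recruits translation factors to the large subunit. Its partners in the stalk were lower, with *Rplp0*, the base of the stalk, at 1543 ± 209 FPKM and *Rplp2* at 404 ± 71.3 FPKM. On the mRNA's length the stalk genes were at 5101 ± 865 for *Rplp1*, 1885 ± 255 for *Rplp0*, and 868 ± 153 for *Rplp2*. The order of the stalk genes was the same in all 3 libraries on the table's length, and their ranges did not overlap.

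After *Rplp1*, the highest genes on the table's length were *Rpl36* (2196 ± 424 FPKM), *Rpl19* (1793 ± 316), *Rpl41* (1767 ± 346), and *Rpl8* (1694 ± 305), all of the large subunit. Neighbours in this order differed by less than the larger SD of the pair. On the mRNA's length *Rpl41*, which encodes the smallest protein of the ribosome, came next to *Rplp1* at 4721 ± 926 FPKM. The highest of the small subunit on the table's length was *Rps15* at 1670 ± 306 FPKM, and *Rps2*, whose product lies near the entry of the mRNA, was the highest on the mRNA's length at 2860 ± 279 FPKM. The next small subunit gene on that scale was at 2803 ± 484 FPKM, a smaller difference than either SD. *Rpsa*, also known as the laminin receptor and part of the small subunit, was at 766 ± 151 FPKM, or 1254 ± 248 on the mRNA's length. The 4 X-linked genes lay within the range of the autosomal ones, with *Rps4x* at 1717 ± 281 FPKM, *Rpl10* at 1701 ± 277, *Rpl36a* at 1489 ± 253, and *Rpl39* at 982 ± 145 on the mRNA's length.

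Paralogues with a restricted tissue range had at most 1 read in any library. *Rpl3l*, the paralogue of *Rpl3* that is known from muscle, had 1, 0, and 0 counts in replicates 1, 2, and 3. *Rpl39l*, a paralogue of *Rpl39* known from the testis, had 0, 1, and 0 counts, and *Rpl10l*, a retrogene of *Rpl10* with the same tissue, had 0 in every library. A level of 3 counts, the limit that a count of 0 allows, would be 0.0975 to 0.20 FPKM for these genes. Their partners were high, with *Rpl3* at 454 ± 73.2, *Rpl39* at 419 ± 62.1, and *Rpl10* at 662 ± 108 FPKM on the table's length. *Rps27l*, the remaining gene with such a symbol, was expressed in every library, with 10274, 8051, and 7964 counts, at 588 ± 93.8 FPKM beside 608 ± 255 FPKM for its partner *Rps27*. *Rps4l*, named like a paralogue of *Rps4x*, is annotated as a pseudogene and is not among the 80 genes, and it held 1, 2, and 2 counts.

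The 77 genes over that limit were far from equal. On the mRNA's length they ranged from 4.06 to 5101 FPKM, with quartiles of 912 and 1996 FPKM and an SD of 1.93 on the log2 scale, and 54 of them reached 1000 FPKM. *Rpl24*, *Rpl29*, *Rps10*, *Rpl34*, *Rpl21*, *Rpl13a*, and *Rpl30* were the 7 lowest on both length scales, at 4.06 to 132 FPKM on the mRNA's length. The next lowest gene on that scale, *Rps15a*, was at 199 FPKM with a principal transcript of 5179 bases, much longer than its coding part. *Rps20* followed at 373 FPKM with a principal transcript of 3706 bases. Levels on this scale thus depend on which transcript was taken as the principal one. The products of these 7 genes are ordinary parts of the ribosome, so their counts were set beside those on other genes with the same sequence.

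For this, each 50-base word of a gene's principal mRNA was looked up in the transcripts of all other genes in the annotation, pseudogenes included, on either strand. The share of a gene's words found elsewhere ran from 0% to 98.6% for *Rps27*, with a median of 48.8%. A gene elsewhere in the genome was called a copy when it held at least 20% of the words of the coding part, and these words were at least 10% of its own length. There were 440 copies of 71 of the 80 genes. Of the copies, 427 are annotated as pseudogenes and 11 as coding genes, and 364 held counts. Together the copies made up 1.85%, 1.42%, and 1.49% of a library, which is 14.5%, 14.8%, and 14.9% of the counts on the ribosomal protein genes and copies combined.

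In 7 genes the copies held more counts than the gene itself, and 6 of these are among the 7 lowest named above. The gene and copy are almost the same text. A coding stretch of 60 bases within 1 exon is shown for 4 of the pairs, beside the copy with the most counts. Capitals mark the bases in which they differ, coordinates are on GRCm38, and the letters run 5′ to 3′ on the gene's own strand.
Rpl34 (chr3:130729055-130729114, minus strand): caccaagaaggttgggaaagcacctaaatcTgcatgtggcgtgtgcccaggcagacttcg
Rpl34-ps1 (chr6:71124711-71124770, plus strand): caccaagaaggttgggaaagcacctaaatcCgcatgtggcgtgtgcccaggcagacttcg
Rps10 (chr17:27632279-27632338, minus strand): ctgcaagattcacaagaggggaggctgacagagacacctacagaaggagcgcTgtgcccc
Rps10-ps2 (chr16:20822241-20822300, minus strand): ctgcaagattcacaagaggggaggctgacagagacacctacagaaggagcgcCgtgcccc
Rpl30 (chr15:34442677-34442736, minus strand): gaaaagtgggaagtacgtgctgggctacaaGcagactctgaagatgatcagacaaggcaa
Gm12191 (chr11:49678933-49678992, minus strand): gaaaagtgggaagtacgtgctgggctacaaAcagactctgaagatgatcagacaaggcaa
Rpl29 (chr9:106430312-106430371, plus strand): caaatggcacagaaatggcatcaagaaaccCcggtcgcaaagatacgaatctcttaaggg
Gm13841 (chr5:115802059-115802118, minus strand): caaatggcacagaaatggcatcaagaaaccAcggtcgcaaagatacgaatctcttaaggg

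Over the whole coding sequence, *Rpl34* and *Rpl34-ps1* differed in 2 of 354 bases and *Rpl30* and *Gm12191* in 1 of 348 bases. *Rpl29* and *Gm13841* differed in 3 of 483 bases, and *Rps10* and *Rps10-ps2* in 5 of the 496 bases that could be aligned. The genes have 4 to 6 exons and all of these copies have 1.

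*Rpl34* encodes a large subunit protein and held 511, 445, and 430 counts in replicates 1, 2, and 3. Its pseudogene *Rpl34-ps1*, on chromosome 6, held 21926, 15932, and 17431. The copies together carried 97.6% of the counts of gene and copies, and the level of *Rpl34* on the mRNA's length was 52.7 ± 5.35 FPKM alone and 2165 ± 391 FPKM with the copies added. With them it lay within the band of the other genes.

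*Rps10*, a small subunit protein, held 128, 108, and 103 counts, whereas *Rps10-ps2* on chromosome 16 held 8352, 6843, and 7168. Its level on the mRNA's length was 6.97 ± 0.871 FPKM alone and 496 ± 63.2 FPKM with the copies. *Rpl29*, a large subunit protein, held 100, 76, and 84 counts against 4238, 3931, and 3576 on its 19 copies, of which *Gm13841* on chromosome 5 held the most. Its level went from 6.48 ± 1.01 to 299 ± 25.8 FPKM, still below the lower quartile of 1021 FPKM that the genes had when copies were added.

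*Rpl30* held 2169, 1619, and 341 counts, and *Gm12191* on chromosome 11 held 14459, 12577, and 13108. Replicate 3 was far below the others in the gene and between them in the copy. The gene and its copies together held 16762, 14310, and 13606 counts, at 1430 ± 170 FPKM on the mRNA's length. *Rpl21* held 2600, 1627, and 2034 counts against 4458, 3442, and 3267 on its 42 copies, the most copies of any of the 80 genes. The level of *Rpl21* was 61.7 ± 15.3 FPKM alone and 171 ± 34.1 FPKM with the copies. *Rpl17* on chromosome 18 held 7953, 6438, and 7048 counts, and its copies held 17901, 13491, and 12462, most of them on *Rpl17-ps10* and *Rpl17-ps3*. *Rpl17* itself was at 505 ± 61.8 FPKM and so was not among the lowest.

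*Rpl24*, a large subunit protein at the interface of the subunits, was the lowest of the 77 genes and stayed so with its copies. It held 77, 54, and 20 counts, and its 2 copies held 620, 451, and 473. Its level on the mRNA's length was 4.06 ± 2.33 FPKM alone and 45.7 ± 9.71 FPKM with them. *Rpl13a*, known besides its place in the ribosome for a part in the interferon-gamma response, held 2192, 1710, and 1885 counts, and its copy held 109, 112, and 121. Its level was 101 ± 14.3 FPKM alone and 107 ± 14.3 with the copy.

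**Figure D1:**
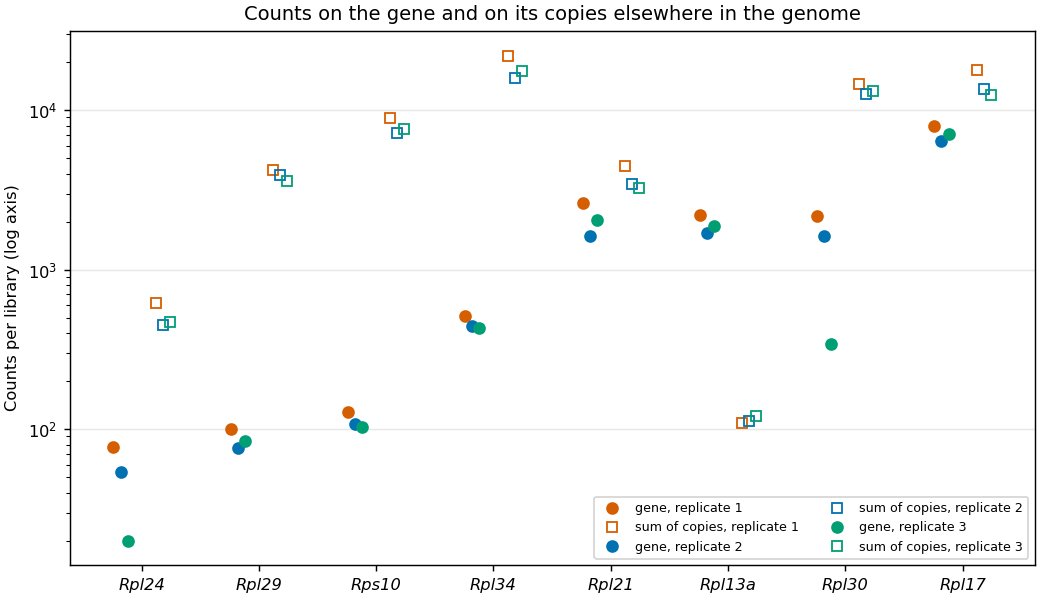
Counts (log axis) on 8 ribosomal protein genes (filled circles) and on the sum of their copies (open squares) in each of 3 ALSC libraries; the genes are those with more counts on copies than on the gene and *Rpl13a*, which shares over 50% of its exonic bases with another gene. The copies exceed the gene in every library for all genes but *Rpl13a*.

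A second feature of the annotation fell on the same genes. *Rpl24*, *Rpl13a*, and *Rps10* were the 3 genes of the 80 in which over 50% of the exonic bases of the principal mRNA also belong to an exon of another gene on the same strand. For *Rpl24* the share was 71.5%, with the noncoding gene *Gm28037*. For *Rpl13a* it was 59.3%, nearly all with *Gm45713*, and for *Rps10* 53.6%, with *Gm49804*, both annotated as coding. *Gm28037*, *Gm45713*, and *Gm49804* held 0 counts in every library. The only other gene of the 80 with a same-strand overlap was *Rpl19*, with 10.7%, at 2440 ± 431 FPKM on the mRNA's length. Across all coding genes of the table, the median mean count was 57.7 for the 20458 genes with no such overlap and 0 for the 490 genes with over 50%. It was 154 for the 836 genes with a smaller overlap, so the levels did not fall steadily with the overlap. A mean under 10 counts was seen in 41.1% of the genes with no overlap, 29.7% of those with a smaller overlap, and 77.8% of those with over 50%. The groups hold every annotated coding gene, also gene models without any counts. Their values therefore need not hold for genes such as *Rpl13a* or *Rps10*. The library kit does not mark strand, so reads of a gene and of an antisense partner cannot be told apart. Overlap on the opposite strand covered at least 20% of the exonic bases in 7 of the 80 genes, up to 68.3% in *Rpl35*, and these 7 lay between 132 (*Rpl30*) and 2172 FPKM (*Rpl23a*) on the mRNA's length. How the counting treated reads that match several genes or positions is not given in the sources used here, and the part of copies and overlaps in the low counts was not tested.

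With the counts of copies added, the lowest levels rose and the full spread of levels narrowed. The SD of the levels of the 77 genes on the log2 scale went from 1.93 to 1.15, and the ratio of the highest to the lowest level from 1256 to 115. The quartiles moved from 912 and 1996 FPKM to 1021 and 2206 FPKM, a similar spread on a log scale. The number of genes at 1000 FPKM or more on the mRNA's length went from 54 to 60. The level of each gene, and so this number, cannot fall when counts are added. In 33 genes the copies held 10% to 50% of the combined counts, and in 31 under 10%. Adding copies moved *Rpl26* from 2365 ± 487 to 4040 ± 796 FPKM, since its pseudogene *Gm15772* on chromosome 5 held 19115, 14258, and 14381 counts. The copies with the most counts in all were those of *Rplp0* (24523, 19712, and 20261 counts), *Rpl3* (21437, 19135, and 18268), *Rpl34*, *Rpl26*, and *Rpl17*. *Rpl3-ps1*, on the X chromosome, held 21071, 18834, and 18016 counts beside 30918, 24457, and 23589 on *Rpl3*, whose product reaches into the peptidyl transferase centre. Some of the counts on a copy can come from its own transcripts, and the table alone does not separate these from reads of the gene.

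A high share of shared words did not by itself go with a low count. The 15 genes with at least 80% of their words found elsewhere lay between 559 and 2352 FPKM on the mRNA's length. This range depends on the cut. Just below it, *Rpl19* (79.3%) and *Rps2* (79.0%) were at 2440 and 2860 FPKM, but *Rpl17* (78.65%) and *Rpl24* (77.7%) at 505 and 4.06 FPKM. Of all 80 genes, the 5 with the largest shares were *Rps27* (98.6%), *Rpl9* (93.3%), *Rpl10* (92.1%), *Rpl10a* (88.1%), and *Rps18* (86.7%), at 1837, 1328, 1701, 2090, and 1666 FPKM. *Rpl10* kept nearly all of its counts, with 29164, 22539, and 22741 on the gene and 766, 517, and 564 on its 9 copies. Across the 80 genes, Spearman's correlation of log2(FPKM + 1) on the table's length with the share of words was 0.17, given as a description because the genes share libraries and are no replicates. It was 0.39 on the mRNA's length. Both that level and the share of words are divided by the mRNA's length, so a long transcript can lower both. The larger value therefore cannot be read as a closer link. With coding words and the mRNA's length it was 0.0945, a setting chosen after seeing the data.

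**Figure D2:**
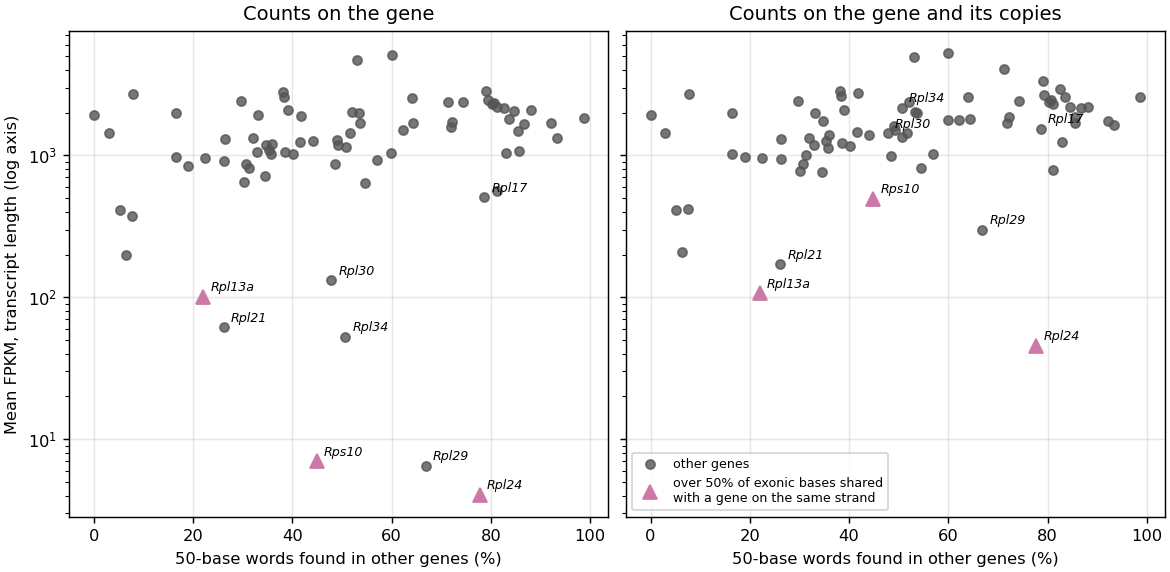
Mean FPKM of 3 ALSC libraries on the length of the principal mRNA (log axis) against the percent of a gene's 50-base words that occur in other genes, for counts on the gene alone (left) and with its copies (right); each point is 1 of 77 genes, and triangles are genes with over 50% of exonic bases shared with a gene on the same strand. The low points on the left span 22.0% to 77.7% of shared words, and *Rpl34* and *Rpl30* join the main band on the right.

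The libraries differed in these genes, and in 1 direction. Because there is 1 condition, a chi-square test of homogeneity asked only whether a gene's counts differed between libraries by more than counting error, with TMM library sizes and Benjamini-Hochberg adjustment over all 16944 genes with at least 10 counts in total. It called 75 of the 77 tested ribosomal protein genes at an adjusted p of 0.05, where 47.2% of all tested genes were called. Of genes that averaged 1000 counts or more, it called 73 of 73 ribosomal protein genes and 82.2% of all such genes. The exceptions were *Rpl29* (adjusted p = 0.0954) and *Rps10* (adjusted p = 0.125), both with few counts. The largest adjusted p of a called gene was 0.00125, for *Rpl34*. Ordinary variation between cultures is not part of this test.

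Replicate 1 was the highest library in 76 of the 77 genes, 74 of them called, and replicate 2 was the lowest in 67. Of all tested genes, 22.2% were called with replicate 1 highest, 15.1% with replicate 2 highest, and 9.9% with replicate 3 highest. At an average of 1000 counts or more it was 72 of 73 ribosomal protein genes and 43.8% of all such genes. For each library, the log2 ratio of its CPM, a count scaled by the TMM library size, to the mean CPM of the other libraries was taken. Its median over the 77 genes was 0.47 for replicate 1, -0.31 for replicate 2, and -0.18 for replicate 3. Over all tested genes it was close to 0 for each library. The shift was alike in the subunits, with 0.47 for the small and 0.46 for the large subunit in replicate 1. The coefficient of variation over the 3 libraries had a median of 19.96% in the 73 genes, with quartiles of 17.8% and 22.0%, and of 10.1% in all 4042 genes that averaged 1000 counts or more.

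The 80 genes are short on the table's scale, and the shift was smaller with length and GC content taken into account. The median length was 1754.5 bases for the 80 genes and 3789 bases for all tested genes, and the median GC content was 51.0% and 50.4%. When the dependence on length and on GC content was subtracted library by library, the median of the ribosomal protein genes was 0.21 for replicate 1, -0.17 for replicate 2, and -0.07 for replicate 3. The length in this step was the table's, which for the 80 genes is a median of 2.02 times the mRNA's. Whether an effect of the mRNA's length remains was not tested. Length and GC content were both subtracted, so the change cannot be credited to either alone. Before this, the longest of the 80 genes, *Rps15a* (6270 bases), was at 0.50 in replicate 1 and the shortest, *Rpl36* (383 bases), at 0.52. Afterwards they were at 0.58 and 0.19, so the subtraction set apart these 2 genes that had been alike. Of the 73 genes, 69 were still above the other libraries in replicate 1, against 54.0% of all genes with so many counts. Without replicate 1, the test called 59 of the 77 genes, with 8.11% of all genes called. The test called 75 without replicate 2 and 76 without replicate 3, with 42.9% and 46.7% of all genes. Without replicate 1, replicate 2 was below replicate 3 by a median of 0.09 on the log2 scale. What set replicate 1 apart was not tested.

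Genes with related roles were set beside them. For reading the counts, 47.2% of all tested genes and 82.2% of those averaging 1000 counts or more were called, and 22.2% and 43.8% were called with replicate 1 highest. A list of 14 genes held translation factors whose mRNAs carry a terminal oligopyrimidine tract or are translated like such mRNAs. It also held *Tpt1*, *Npm1*, *Nap1l1*, and *Hnrnpa1*, which are not translation factors. Of the 14 genes, 13 were called, 11 of these with replicate 1 highest, and their median log2 ratio in replicate 1 was 0.32. *Eef1a1*, which delivers transfer RNA to the ribosome, was the highest of them with 222189, 192946, and 198672 counts, and *Eef1d* the lowest at 36.8 ± 6.76 FPKM. *Eef2*, the translocase of elongation, went the other way with 74650, 90687, and 85828 counts, as did *Eif4b* with 12605, 16045, and 14843. Of 24 genes for ribosomal RNA transcription and ribosome assembly, 20 were called, 17 with replicate 1 highest, with a median of 0.18 in replicate 1. The number called is near the share in genes of many counts. They ran from *Wdr12* at 11.3 ± 1.40 FPKM to *Nhp2*, a component of the pseudouridylation complex, at 274 ± 40.3 FPKM. Of 13 genes of mTORC1 and regulators of these mRNAs, 9 were called, 3 with replicate 1 and 5 with replicate 2 highest, with a median of -0.20 in replicate 1. The number called lies between the shares given for all genes and for genes of many counts. *Mtor* itself had 1256, 2357, and 2189 counts and was lowest in replicate 1. The highest of this list was *Eif4ebp1*, a repressor of translation that mTORC1 inactivates, at 140 ± 14.99 FPKM, and the lowest *Rps6kb2* at 1.13 ± 0.214 FPKM. Of 78 mitochondrial ribosomal protein genes, 72 of the 76 tested were called, all 72 with replicate 1 highest, with a median of 0.37. The mitochondrial list was chosen after seeing the data. With length and GC content taken into account, the medians in replicate 1 were 0.19 for the first list of 14 genes and 0.12 for ribosome assembly. They were -0.06 for mTORC1 and regulators and 0.19 for the mitochondrial ribosome.

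**Figure D3:**
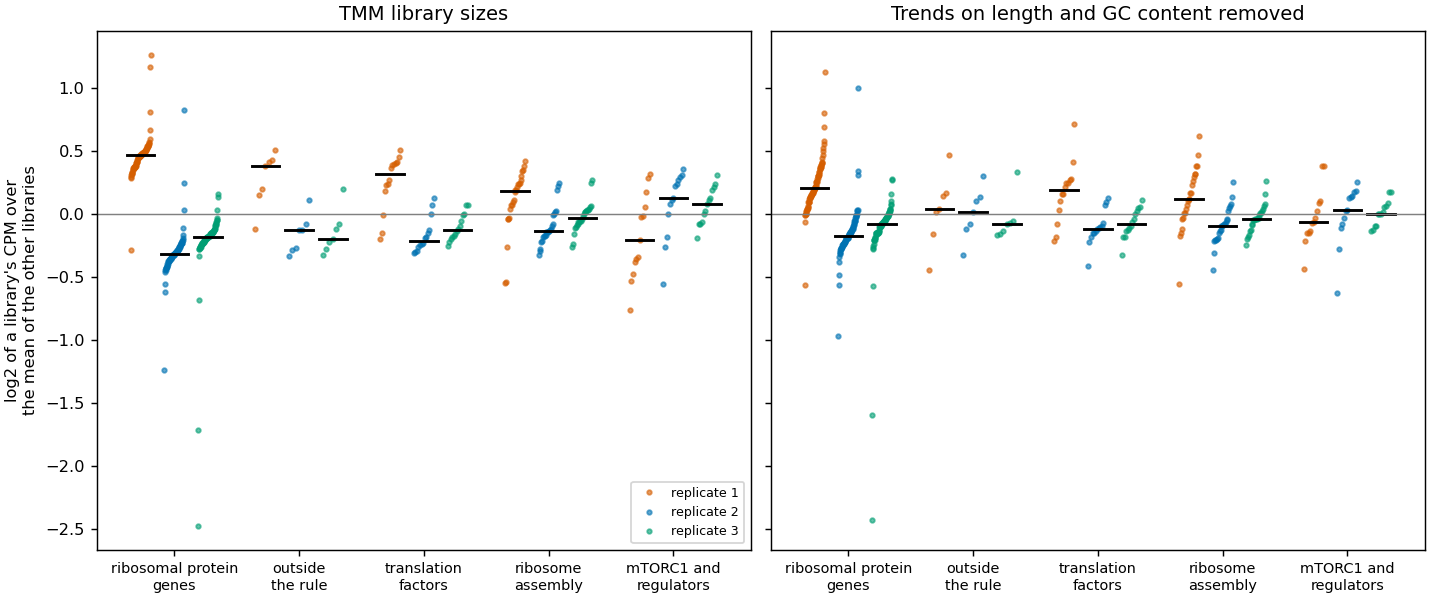
Log2 ratio of a library's CPM to the mean of the other libraries for the 77 tested ribosomal protein genes and 4 gene lists, scaled by TMM (left) and after subtracting the trends on length and GC content (right); points are genes and black lines medians. The ribosomal protein genes sit at a median of 0.47 in replicate 1 on the left and 0.21 on the right. The group labelled translation factors also holds *Tpt1*, *Npm1*, *Nap1l1*, and *Hnrnpa1*.

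The symbols of 7 further genes for proteins of the cytosolic ribosome or close paralogues fall outside the rule, and 6 of the 7 were called, all with replicate 1 highest. Of all genes averaging 1000 counts or more, 82.2% were called and 43.8% were called with replicate 1 highest, and the number called among the 7 is near the first of these. *Rps3a1* was the highest of them at 1339 FPKM, with 27753, 22155, and 21769 counts. *Fau*, which encodes a small subunit protein fused to a ubiquitin-like domain, had 16610, 12443, and 12468 counts, and *Rack1*, a scaffold on the small subunit, 47947, 38782, and 39785. *Rpl36al* was the lowest at 1.56 FPKM with 35, 39, and 42 counts.

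Relative to its counts, *Rpl30* had the largest chi-square of the genes averaging 100 counts or more, followed by *Rps27*, *Rps27a*, *Rps12*, and *Rpl21*. *Rps27*, a small subunit protein with a zinc finger, had 15665, 6437, and 12476 counts in replicates 1, 2, and 3, and was lowest in replicate 2. *Rps27rt*, on chromosome 9, had 3618, 7856, and 2964 counts and was highest in replicate 2. It is an intronless gene annotated as coding, and its sequence was identical to *Rps27* in all 255 coding bases. The following stretch of 60 bases is thus shared by *Rps27* (chr3:90213242-90213301, minus strand) and *Rps27rt* (chr9:114982642-114982701, minus strand).
Rps27 and Rps27rt: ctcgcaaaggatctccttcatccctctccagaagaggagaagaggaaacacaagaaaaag
*Rps27* and its copies together had 19285, 14298, and 15446 counts. Their coefficient of variation was 20.3%, against 44.2% for the gene alone, and thus close to the median of the other genes. For *Rpl30* it was 14.8% with copies and 70.1% alone, and for *Rps12* 24.1% with copies and 28.3% alone.

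*Rps27a*, which encodes ubiquitin fused to a small subunit protein, was the only gene of the 77 with replicate 2 highest. It had 11222, 19819, and 9525 counts, and its log2 ratio was 0.83 in replicate 2. Its copies had 1890, 786, and 1023 counts and were lowest in replicate 2. With them the coefficient of variation was 31.4%, against 36.5% alone, so the sum was still highest in replicate 2. *Rpl24* and *Rpl30* stood out in replicate 3, where *Rpl24* had 20 counts against 77 and 54.

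**Figure D4:**
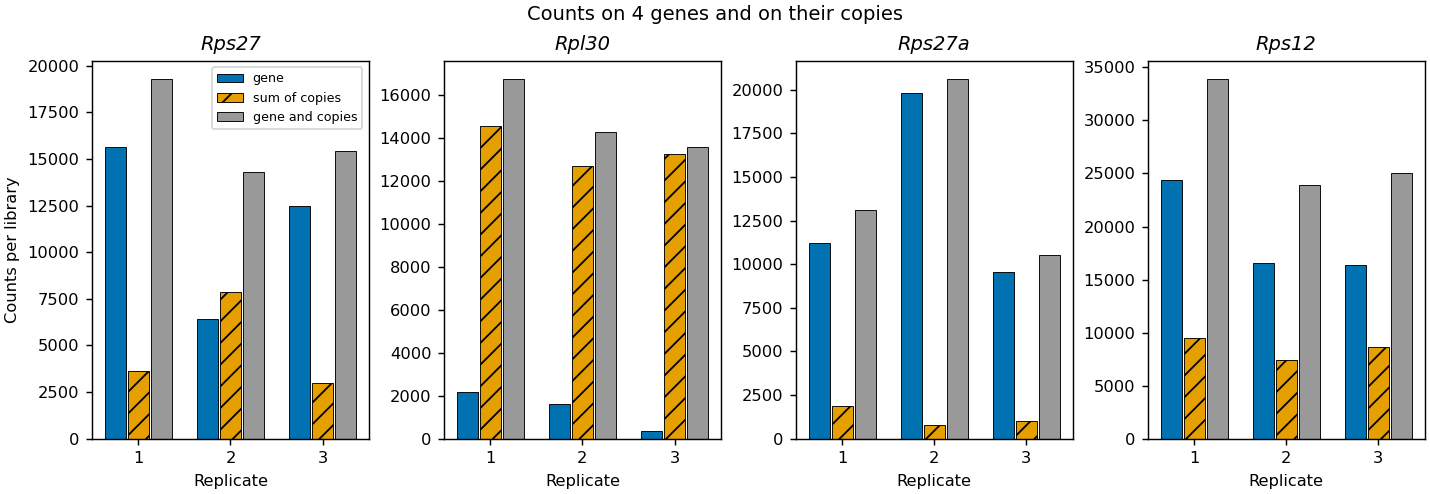
Counts on *Rps27*, *Rpl30*, *Rps27a*, and *Rps12* (blue), on their copies (orange, hatched), and on both (grey) in each of 3 ALSC libraries; each panel has its own axis, starting at 0. In *Rps27* the gene falls and the copies rise in replicate 2, and the sum lies between 14298 and 19285 counts.

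Start sites were examined because the genes moved together. RefSeq promoter sequences on GRCm38.p6, 250 bases before to 50 after an annotated start, were held for 60 of the 80 genes, with 72 starts. A run of at least 8 bases that are each C or T, on the sense strand and within 20 bases of the start on either side, was present at 30 of the 72 starts (41.7%). It was present at 16.0% of all 32851 starts and at 17.3% of the starts of mitochondrial ribosomal protein genes. Such runs occurred in genes of high and of low counts. The windows of 30 bases that hold the run are given for 5 genes named above, with the run in capitals.
Rpl34 (chr3:130730328-130730357, minus strand): ccgCCCCTTCCTTTTCCTCTTCCggggacg
Rps10 (chr17:27635227-27635256, minus strand): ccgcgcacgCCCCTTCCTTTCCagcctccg
Rpl13a (chr7:45128726-45128755, minus strand): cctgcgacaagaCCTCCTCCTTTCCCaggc
Rpl19 (chr11:98026904-98026933, plus strand): gggcttgggCTCTCCCCTTCgcagataatg
Rplp2 (chr7:141447636-141447665, plus strand): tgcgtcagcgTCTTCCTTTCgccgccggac

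The letters CCGGAAG, a motif of ETS factors, were found on either strand in 36.1% of the 72 promoters, in 34.7% of those of mitochondrial ribosomal protein genes, and in 8.86% of all promoters. The reverse complement of this motif ends a pyrimidine run and can overlap it. The median GC content was 57.8% for these promoters, 58.7% for those of the mitochondrial ribosome, and 52.7% for all. A match is a description of the sequence and not evidence of binding, and annotated starts can be some bases away from those used in ALSCs.

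Of the 80 genes, 14 lie on chromosome 7. Of all 80, 29 host 56 small nucleolar RNA genes within their bounds. Of these small RNAs 23 held any count, with at most 129 over the 3 libraries, in libraries made from poly(A) RNA.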

How the data were processed

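Poly(A) RNA of 3 ALSC replicates was analysed. The authors deposited raw counts per gene, without normalization, from paired-end reads mapped to GRCm38. The submitters' processing notes list HISAT2 2.0.5. The counting program and its handling of strand and of reads with several positions are not given in the sources used here. The deposited table also holds a gene length in bases, and 3 count columns that match no sample of the series and were not used. Its 317 rows without a gene name (0.165% to 0.182% of counts) were left out.

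FPKM used the table's gene length and the total count on named genes, with a floor of 3 counts. TMM factors (0.968, 1.02, and 1.01) came from edgeR 4.0.16 in R 4.3.3, with DESeq2 1.42.0 as an alternative. The rest was done in Python 3.11.15 (pandas 2.3.3, NumPy 2.4.6, SciPy 1.17.1) with figures by matplotlib 3.10.9. Principal mRNAs were chosen by APPRIS, RefSeq, CCDS, and support level, then the shortest. Words of 50 bases were looked up in GENCODE M21 transcripts and not in the genome, since only transcripts were at hand, although the plan named the genome. Of genes that hold coding words, 11 long ones were not counted as copies. Length and GC dependence was taken as medians over 20 bins of genes averaging 100 counts or more.

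The test of homogeneity was tested on simulated data drawn from these libraries and 16944 genes, with 200 genes changed in replicate 1. It called 95 of the 200 at 1.25-fold and 142 at 2-fold, among them 49 of 49 and 42 of 42 averaging 1000 counts or more, and 5 and 6 of the unchanged genes. Both the test and the floor cover counting error only.

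The genes named are the 5 highest and 5 lowest, the 5 with the largest chi-square per count, share of words elsewhere, and counts on copies, the stalk genes, *Rpsa*, X-linked genes, genes with symbols in l and their partners, *Rps27a*, and the highest and lowest of each list. Others, such as *Rpl13a*, *Rpl21*, *Eef2*, *Mtor*, and the genes that overlap *Rps10*, *Rpl24*, and *Rpl13a*, were named after their values were seen. The genes and lists were chosen with earlier results of these data known. Some genes are not reported here.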

Additional observations from a re-analysis of the deposited data

How the results depend on the processing

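Depth was alike in the 3 libraries and limits only *Rpl24*, *Rpl29*, *Rps10*, and the paralogues at the floor. The count of varying genes was 59 to 76 when a replicate was left out, and the median log2 ratio of replicate 1 was 0.41 and 0.51. The count was 75 and the ratio 0.40 with total counts as library sizes, and 75 and 0.46 with DESeq2 size factors, and the count was 75 over every gene with at least 1 count. The share of counts was 15.6% as a share of TPM and 10.8% with copies added, which was chosen after seeing the data. The median level of 573 FPKM was 1267 FPKM on the mRNA's length and 1572 as TPM. The correlation of level with shared words, 0.17, was 0.22 with 31-base and 0.0578 with 100-base words, 0.39 on the mRNA's length, and 0.0693 without the tissue-restricted paralogues. Chosen after seeing the data, it was 0.0762 with coding words, 0.0945 with coding words and the mRNA's length, and 0.21 without the 7 genes with more counts on copies. Those 7 genes were 2, *Rpl24* and *Rpl30*, when a copy had to hold 80% of the coding words, and 7 at 10% and 50%. Since there is 1 group, no paired analysis was possible because no group shares a number with another.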

Other observations

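Of the 364 copies with counts, 22 lie on the X chromosome. Among them are *Rpl3-ps1*, described above, *Gm6472*, a copy of *Rps7* with 13035, 10235, and 10634 counts in replicates 1, 2, and 3, and *Rpl21-ps15*, a copy of *Rpl21* with 3156, 2444, and 2336 counts. Some other copies had no difference from their gene in the coding bases. *Rps12-ps3*, on chromosome 19, is annotated as coding and held 9242, 7231, and 8498 counts beside 24420, 16527, and 16336 on *Rps12*. *Gm10275*, on chromosome 10, is annotated as a transcribed processed pseudogene of *Rpl12* and held 8995, 6765, and 7097 counts. These copies were named after their values were seen.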
